A study of Glycine max with 8 samples.

Results

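AUX22, AUX28 and PIN2A are 3 soybean genes of auxin response and auxin transport. They were taken by name: a probe set belongs here when its gene symbol in the platform's probe annotation is AUX22, AUX28 or PIN2A. Each symbol had 1 probe set, so they are 3 of the 37641 soybean probe sets on the array, and all 3 were among the 33625 that passed the filter on dim signals. The cultivar was Tamahomare throughout, and the labels name no treatment or mutation. Pods at the start of elongation, pods together with seeds of 2 mm (bean 2 mm, or 2 mm beans, below), seeds of 5 mm, and green seeds at full size were compared, with 2 Affymetrix soybean arrays for each stage. Whether the arrays of a stage stand for different plants is not labelled, so p-values speak only of the spread among these arrays, part or all of which may be technical.

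Auxin is sensed by the TIR1 and AFB receptors, which tag Aux/IAA repressor proteins for breakdown and so release auxin-response transcription factors. AUX22 and AUX28 encode Aux/IAA proteins, and many genes of this family are themselves induced by auxin, which makes their transcripts a common sign of auxin response. PIN proteins carry auxin out of cells and LAX proteins carry it in; PIN2 is best known from roots of Arabidopsis. In seeds auxin is known for its part in embryo patterning and in the growth of the seed before filling.

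Values below are signals scaled so that all arrays had the same median, and changes are differences of log2(scaled signal + 16), on which dim transcripts show less change than they had. Background is the 95th percentile of the probe sets for 2 soybean pathogens that the array also carries. On this scale it lay between 5.62 and 6.68 on the 6 arrays of the younger stages, and at 16 and 18.6 in fully grown beans. The choice of scale bears on that stage most. From bean 5 mm to fully grown the median tested probe set moved by 0.14 on the log2 scale with equal array medians, by 0.03 after quantile normalization, by -0.64 with no scaling of the deposited values, and by -1.36 when arrays were scaled to their hybridization controls (control scaling below), bacterial and phage transcripts added to each sample. Those controls stood at 462 and 462 in elongating pods, 838 and 839 in 2 mm beans, 475 and 482 in 5 mm beans, and 987 and 1032 in fully grown beans, and stage and control level cannot be told apart. The 3' to 5' signal ratio of actin, a sign of RNA quality, was 2.05 and 2.09 in elongating pods and 3.64 and 3.60 in 2 mm beans. It was 2.07 and 2.22 in 5 mm beans, and 2.73 and 4.80 in fully grown beans. Its part in any change was not tested, and for 2 mm beans it cannot be told apart from stage. Seed storage protein markers, 7 of 10 found by symbol, summed to between 7.24 and 22.1 on the arrays of pods and 2 mm beans. The sum was 35.0 and 736 on the bean 5 mm arrays, which thus differed, and 98198 on the lower fully grown array. Of the embryo regulators 2 of 6 were found, LEC1-A and WRI1B, and both were below background in elongating pods and above it on all other arrays. Whole pods and seeds were measured, so fewer cells of a type and less RNA per cell cannot be told apart.

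AUX22 was high in elongating pods and in 2 mm beans, which include the pods, lower in 5 mm beans, and lowest in fully grown beans. Its scaled signal was 360 and 275 in elongating pods, 469 and 500 in 2 mm beans, 103 and 117 in 5 mm beans, and 43.5 and 38.0 in fully grown beans. The arrays of the 4 stages did not overlap, and all 8 stood above background. Relative to the background of the same array, which needs no scaling, the signal was 60.5 and 44.7 times in elongating pods, 83.5 and 79.2 times in 2 mm beans, 17.2 and 17.5 times in 5 mm beans, and 2.72 and 2.05 times in fully grown beans.

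**Figure D1:**
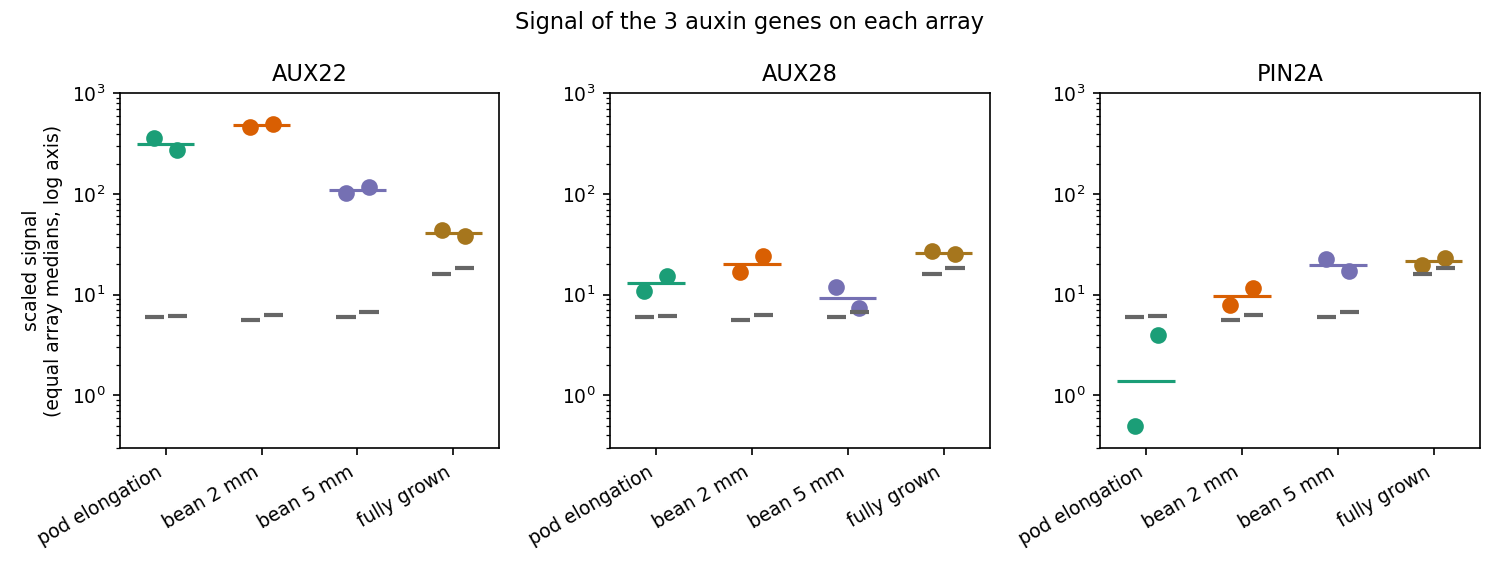
Scaled signal of AUX22, AUX28 and PIN2A (y, log axis) on the 2 arrays of each stage (x); points are arrays, coloured lines the geometric mean of a stage, and short grey lines the background percentile of each array. AUX22 stood at 469 and 500 in 2 mm beans and at 43.5 and 38.0 in fully grown beans, where the grey lines lie at 16 and 18.6, close to AUX28 and PIN2A.

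From elongating pods to bean 2 mm AUX22 rose 1.51-fold (log2 change 0.60 ± 0.15, SE, n = 2 arrays per stage, adjusted p = 0.0105, limma). This rise was the least secure of its changes: without pod elongation replicate 2 it was 0.41 with adjusted p = 0.098, and without bean 2 mm replicate 2 it was 0.55 with adjusted p = 0.0665. From bean 2 mm to bean 5 mm it fell 3.98-fold (-1.99 ± 0.15, adjusted p = 0.000215). From bean 5 mm to fully grown it fell a further 2.21-fold (-1.15 ± 0.15, adjusted p = 0.000264). On the log2 scale the first of these falls was -2.93 without scaling and -2.18 with control scaling, and the second was -1.93 and -2.63.

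Set against the mean of the 3 younger stages, AUX22 in fully grown beans was lower by 2.28 on the log2 scale, a 4.85-fold difference (SE 0.12, adjusted p = 8.66e-07). The fold depends on the scale, with log2 changes of -1.66 at a pseudocount of 64, -3.44 without scaling and -3.91 with control scaling, all of them called. Against elongating pods alone fully grown beans were 5.83-fold lower, and against bean 2 mm 8.82-fold lower. The levels thus ran, from high to low, bean 2 mm, pod elongation, bean 5 mm and fully grown, and each pair of neighbours in that order was called different.

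The second step, from bean 2 mm to bean 5 mm, also left the pods out of the samples, and MAS5 is named as the summarisation program from bean 5 mm on only. The markers of green pod and leaf tissue, 5 of 6 found by symbol and above background on every array, summed to 10779 and 10784 in elongating pods, 2175 and 4187 in 2 mm beans, 4245 and 5019 in 5 mm beans, and 4136 and 4734 in fully grown beans. In 5 mm beans most of that sum was CAB3. It was at 1365 and 2004 in 2 mm beans and at 3225 and 3720 in 5 mm beans. Between the same stages RCA14 went from 225 and 250 to 361 and 354, and RCAALPHA from 220 and 200 to 259 and 361. RCABETA went from 127 and 159 to 95.4 and 97.5. VSPA differed between the 2 mm arrays, at 238 and 1575, and was at 305 and 486 in 5 mm beans. The 5 seed coat markers, all found, summed to 1205 and 1425 in elongating pods, 9939 and 11754 in 2 mm beans, 12606 and 13291 in 5 mm beans, and 8497 and 8916 in fully grown beans. From elongating pods to 2 mm beans 4 of them rose, while HPS went from 128 and 151 to 7.06 and 5.15. In 5 mm beans HPS was at 1370 and 1910. In the last stage HPS made up most of the sum, at 7285 and 6954, and the other 4 were lower than in 5 mm beans, ANR1 going from 2132 and 2018 to 10.7 and 2.19, below background. Of the 4 genes of flower and pod wall organs, which summed to 850 and 931 in elongating pods, 1743 and 1838 in 2 mm beans, 1336 and 1397 in 5 mm beans, and 1527 and 1623 in fully grown beans, AGL1L carried the sum in the stages with seeds. AG1 was at 117 and 90.9 in elongating pods and at 0.671 and 7.8 in 2 mm beans. AP1A was at 211 and 206 and then at 8.21 and 35.1. The others went the opposite way, SEP1 from 118 and 121 to 211 and 205, and AGL1L from 485 and 431 to 1522 and 1590. The part of any tissue in the fall of AUX22 was not tested.

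AUX28, the other Aux/IAA gene, was dim throughout, and its stage order depended on the scale. With equal array medians its mean was highest in fully grown beans, while with control scaling its stage means of 21.7, 31.3, 13.6 and 7.38, from pods to fully grown, had the same order as those of AUX22. Its scaled signal was 11 and 15.2 in elongating pods, 16.9 and 24.0 in 2 mm beans, 12.0 and 7.34 in 5 mm beans, and 27.3 and 25.2 in fully grown beans. All 8 arrays stood above background, but 1 bean 5 mm array by only 1.1 times. Before scaling, the deposited signal was highest in 2 mm beans, at 37.2 and 42.6, against 12.9 and 17.7 in elongating pods, 12.3 and 7.41 in 5 mm beans, and 12.8 and 9.74 in fully grown beans. As a multiple of the background of its array it was also highest in 2 mm beans, at 3.01 and 3.81, and lay at 1.85 and 2.48, at 2.01 and 1.1, and at 1.71 and 1.36 at the other stages in order of development.

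From elongating pods to bean 2 mm the change of AUX28 was 0.32 (95% interval -0.07 to 0.72, adjusted p = 0.161), and from bean 2 mm to bean 5 mm it was -0.51 (-0.90 to -0.11, adjusted p = 0.0736), so neither was called. The fall in the second step was called under other settings, at -1.12 without scaling (adjusted p = 3.42e-05), at -0.69 with control scaling (adjusted p = 0.0101), and without fully grown replicate 1 or 2 (adjusted p = 0.0395 and 0.0397). From bean 5 mm to fully grown AUX28 was called 1.65-fold higher (0.73 ± 0.17, adjusted p = 0.00718), but with control scaling it was -0.33 (adjusted p = 0.103) and without scaling 0.08 (adjusted p = 0.727). That call was also lost without bean 5 mm replicate 2 (0.60, adjusted p = 0.0632). Against the 3 younger stages it was called higher by 0.50 (adjusted p = 0.0137) with equal array medians, and called lower by 0.38 (adjusted p = 0.0267) without scaling and by 0.68 (adjusted p = 0.000241) with control scaling. No direction for AUX28 in fully grown beans holds under all of these scales.

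In the order of scaled levels AUX28 ran fully grown, bean 2 mm, pod elongation and bean 5 mm, and no pair of neighbours was called different. Fully grown against bean 2 mm gave 0.22 (95% interval -0.17 to 0.61, adjusted p = 0.308), and bean 5 mm against pod elongation -0.18 (-0.58 to 0.21, adjusted p = 0.436), with overlapping arrays in the latter pair. Changes of up to the ends of these intervals are not excluded.

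**Figure D2:**
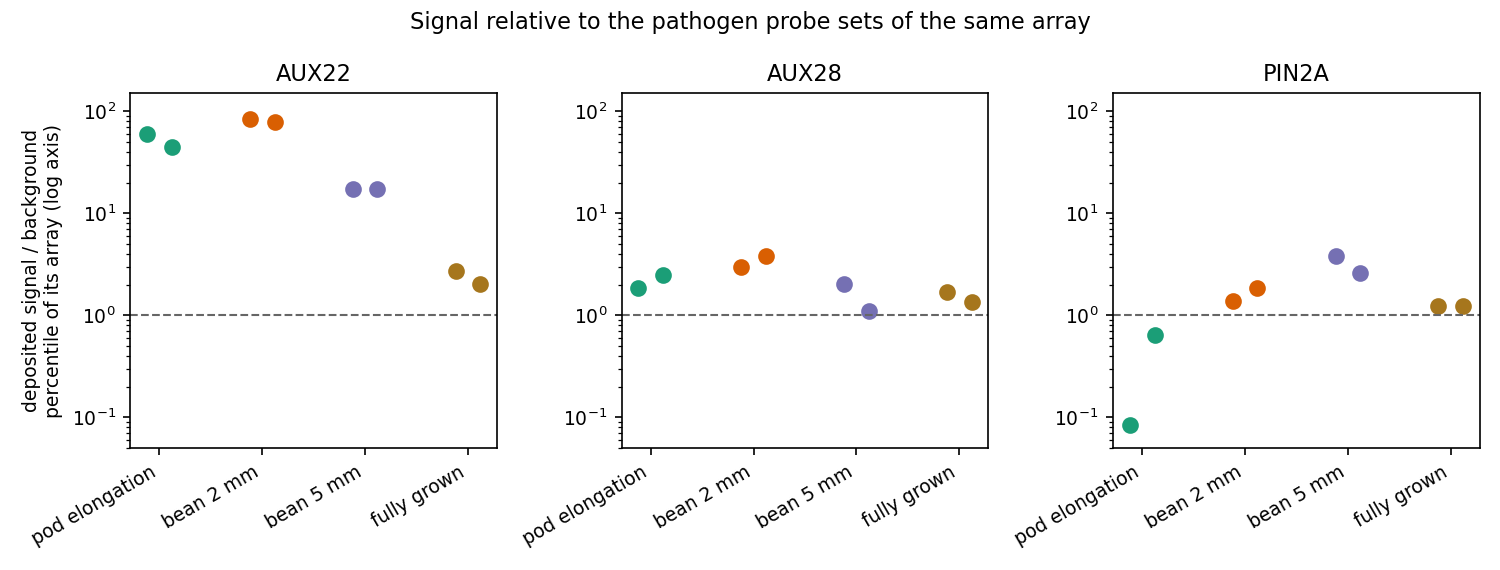
Deposited signal divided by the background percentile of the same array (y, log axis) for each array of the 4 stages (x); the dashed line marks a signal equal to that percentile. AUX28 was highest in 2 mm beans, at 3.01 and 3.81, and PIN2A in 5 mm beans, at 3.79 and 2.58.

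PIN2A, an auxin efflux carrier gene, was not above background in elongating pods and was above it on every array with seeds. Its scaled signal was 0.498 and 3.95 in elongating pods, 7.82 and 11.8 in 2 mm beans, 22.6 and 17.2 in 5 mm beans, and 19.9 and 23.0 in fully grown beans. The first 3 stages did not overlap, while the last overlapped with bean 5 mm. Relative to the background of the array it stood at 0.0835 and 0.643 in elongating pods, 1.39 and 1.87 in 2 mm beans, 3.79 and 2.58 in 5 mm beans, and 1.25 and 1.24 in fully grown beans. It passed the filter through the stages with seeds, on 6 of 8 arrays.

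For a stage not above background a fold is a lower bound, taken against the background of the dim stage. For PIN2A in 2 mm beans against elongating pods this bound was 1.59-fold. The fitted log2 change was 0.50, or 1.42-fold (95% interval 0.12 to 0.89, adjusted p = 0.0377), and was called. This call was lost without any single array of elongating pods or bean 2 mm and without either bean 5 mm array, with log2 changes from 0.37 to 0.64 and adjusted p up to 0.233, and at a pseudocount of 64 (adjusted p = 0.0695). Elongating pods and 5 mm beans also differ in tissue, pods against seeds, and of these MAS5 is named for the 5 mm arrays only. Stage, tissue and program cannot be told apart there. In 5 mm beans the bound for the gene against elongating pods was 3.26-fold, and the fitted change was 1.97-fold (0.98 ± 0.17, adjusted p = 0.0019). That difference remained called under each scaling and without each single array, where the log2 change lay between 0.84 and 1.12 and the highest adjusted p was 0.0249. The second step was itself not called (0.48, 95% interval 0.09 to 0.86, adjusted p = 0.0834), although with control scaling its adjusted p was 0.0493 and without fully grown replicate 1 or 2 it was 0.042.

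From bean 5 mm to fully grown PIN2A gave 0.06 (95% interval -0.32 to 0.45, adjusted p = 0.778). The sign turned to -0.03 after quantile normalization and to -0.04 without bean 5 mm replicate 2. The fall was called at -0.53 without scaling (adjusted p = 0.0158) and at -0.996 with control scaling (adjusted p = 2.99e-05). Against the 3 younger stages fully grown beans were called higher by 0.55 (adjusted p = 0.00768) with equal array medians, at -0.19 (adjusted p = 0.243) without scaling, and called lower by 0.44 (adjusted p = 0.00904) with control scaling. The order of scaled levels was fully grown, bean 5 mm, bean 2 mm and pod elongation, and of the neighbours only bean 2 mm and pod elongation were called different.

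**Figure D3:**
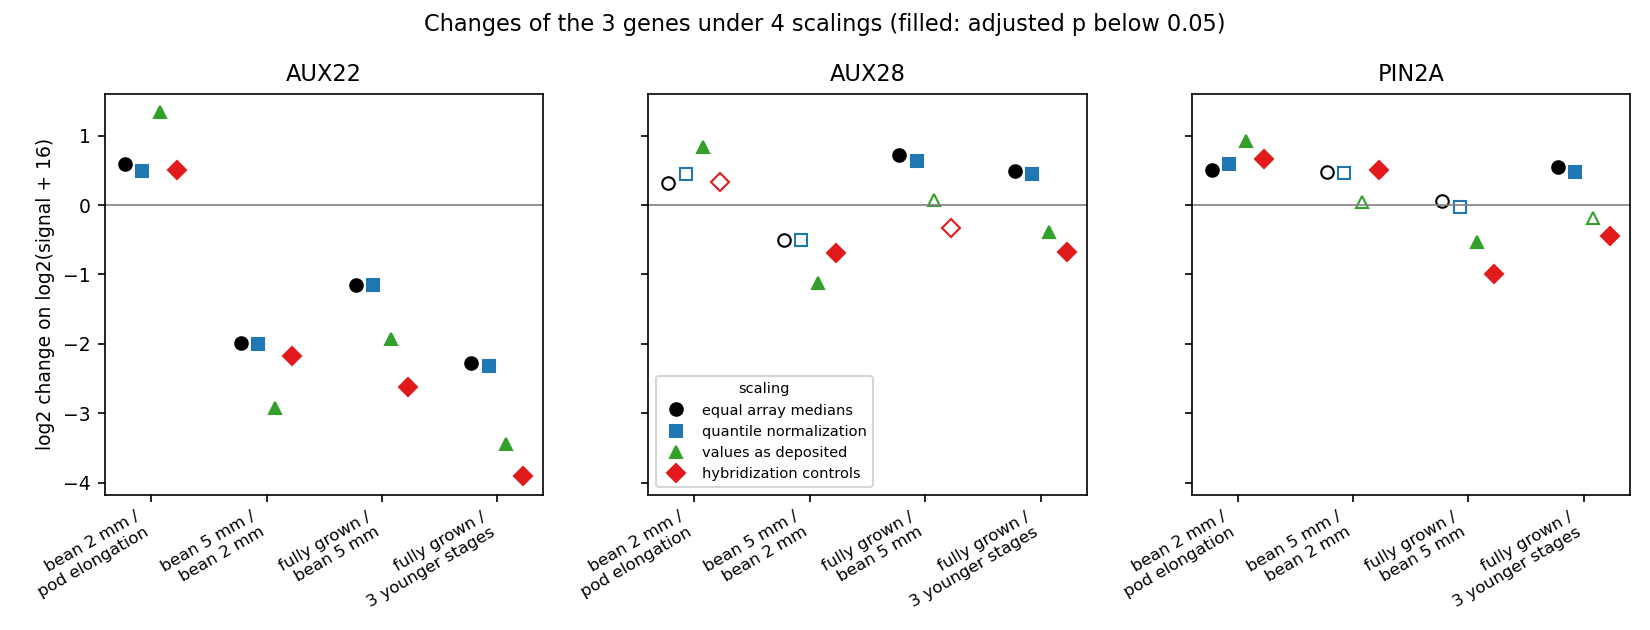
Log2 change of each gene (y, on log2(signal + 16)) in 4 comparisons (x), under equal array medians and 3 other scalings; filled symbols have adjusted p below 0.05. The AUX22 changes keep their sign, while those of AUX28 and PIN2A in fully grown beans against the 3 younger stages run from 0.50 to -0.68 and from 0.55 to -0.44.

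Counted over the 3 genes, 2 were called from elongating pods to bean 2 mm, AUX22 and PIN2A, both higher. In that step 46.9% of all tested probe sets were called, 26.5% higher and 20.4% lower. From bean 2 mm to bean 5 mm only AUX22 was called, lower, where 18.8% of all were called, 9.29% higher and 9.49% lower. In the step to fully grown beans AUX22 was called lower and AUX28 higher, where 52.1% of all were called, 31.6% higher and 20.5% lower. All 3 were called in fully grown beans against the younger stages, AUX22 lower and both others higher, where 61.5% of all were called, 36.1% higher and 25.4% lower. For the other pairs of stages, 2 of 3 were called for bean 5 mm against pod elongation (40.0% of all), 3 for fully grown against pod elongation (62.2%), and 2 for fully grown against bean 2 mm (54.9%). In each pair that holds fully grown beans, the calls of AUX28 and PIN2A as higher turned or were lost with control scaling.

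A ratio of 2 genes on the same array does not depend on a factor applied to the whole array, though quantile normalization can change it. Only its change across arrays can be read, since probe sets differ in brightness. The signal of AUX22 over that of AUX28 was 32.8 and 18.1 in elongating pods, 27.8 and 20.8 in 2 mm beans, 8.56 and 15.9 in 5 mm beans, and 1.59 and 1.51 in fully grown beans. Both fully grown arrays thus lay below all 6 younger ones. On those fully grown arrays AUX22 lay at 2.72 and 2.05 times background, AUX28 at 1.71 and 1.36 times, and PIN2A at 1.25 and 1.24 times. The signal of AUX22 over that of PIN2A was 724 and 69.6, then 60.0 and 42.4, then 4.54 and 6.79, and last 2.18 and 1.65. For the pods, where PIN2A was below background, only a bound can be read, at least 60.5 and 44.7 with PIN2A set to the background, which overlaps with 2 mm beans. The 3 stages with seeds did not overlap, and the ratio was lower at each later one. Neither ratio was tested, and both were picked with their values in view.

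Other auxin genes were sought by symbol, and 5 were found: the receptors TIR1C and AFB3B, the influx carrier LAX11, and ADR11 and ADR12, known in soybean as transcripts that decline on auxin treatment. Of these 5, the step from elongating pods to bean 2 mm called 2 higher (LAX11 and ADR12) and 1 lower (ADR11), and the next step 1 higher (ADR11). In the last step 1 was called higher (ADR11) and 2 lower (LAX11 and AFB3B). Against the 3 younger stages 1 was called higher (ADR11) and 3 lower (LAX11, AFB3B and TIR1C) in fully grown beans. The ADR11 call was lost after quantile normalization (0.21, adjusted p = 0.0869), and the sign turned to -0.45 without scaling and -1.27 with control scaling. The LAX11 call, -1.54 with overlapping arrays, was lost against pods and 2 mm beans alone (-0.81, adjusted p = 0.0576). Over all 8 auxin genes the median log2 change was 0.41, -0.20, -0.14 and -0.26 in these comparisons, beside 0.08, -0.05, 0.14 and 0.11 over all tested probe sets. In the same comparisons 46.9%, 18.8%, 52.1% and 61.5% of all tested probe sets were called in either direction. With so few genes these counts and medians describe the list only.

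LAX11 was high only in 2 mm and 5 mm beans, and in its first and last step it changed more than any other of the 8 auxin genes. Its scaled signal was 51.2 and 43.6 in elongating pods, 538 and 217 in 2 mm beans, 682 and 670 in 5 mm beans, and 48.4 and 99.5 in fully grown beans. It rose 5.68-fold from elongating pods to bean 2 mm (2.51 ± 0.38, adjusted p = 0.000751) and fell 8.02-fold from bean 5 mm to fully grown (SE 0.38 on the log2 scale, adjusted p = 0.000206), and both changes were called under the other 3 scalings. The size of the rise rests on single arrays, at 1.88 on the log2 scale when bean 2 mm replicate 1 was left out and 3.13 when bean 2 mm replicate 2 was. The step between them, 0.95, was not called (adjusted p = 0.113), except without bean 2 mm replicate 1, at 1.57 (adjusted p = 0.0252). LAX11 and PIN2A were both higher in 5 mm beans than in elongating pods, LAX11 by 3.45 on the log2 scale (adjusted p = 0.000123). Here too seeds were set against pods, with MAS5 named for the 5 mm arrays only.

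**Figure D4:**
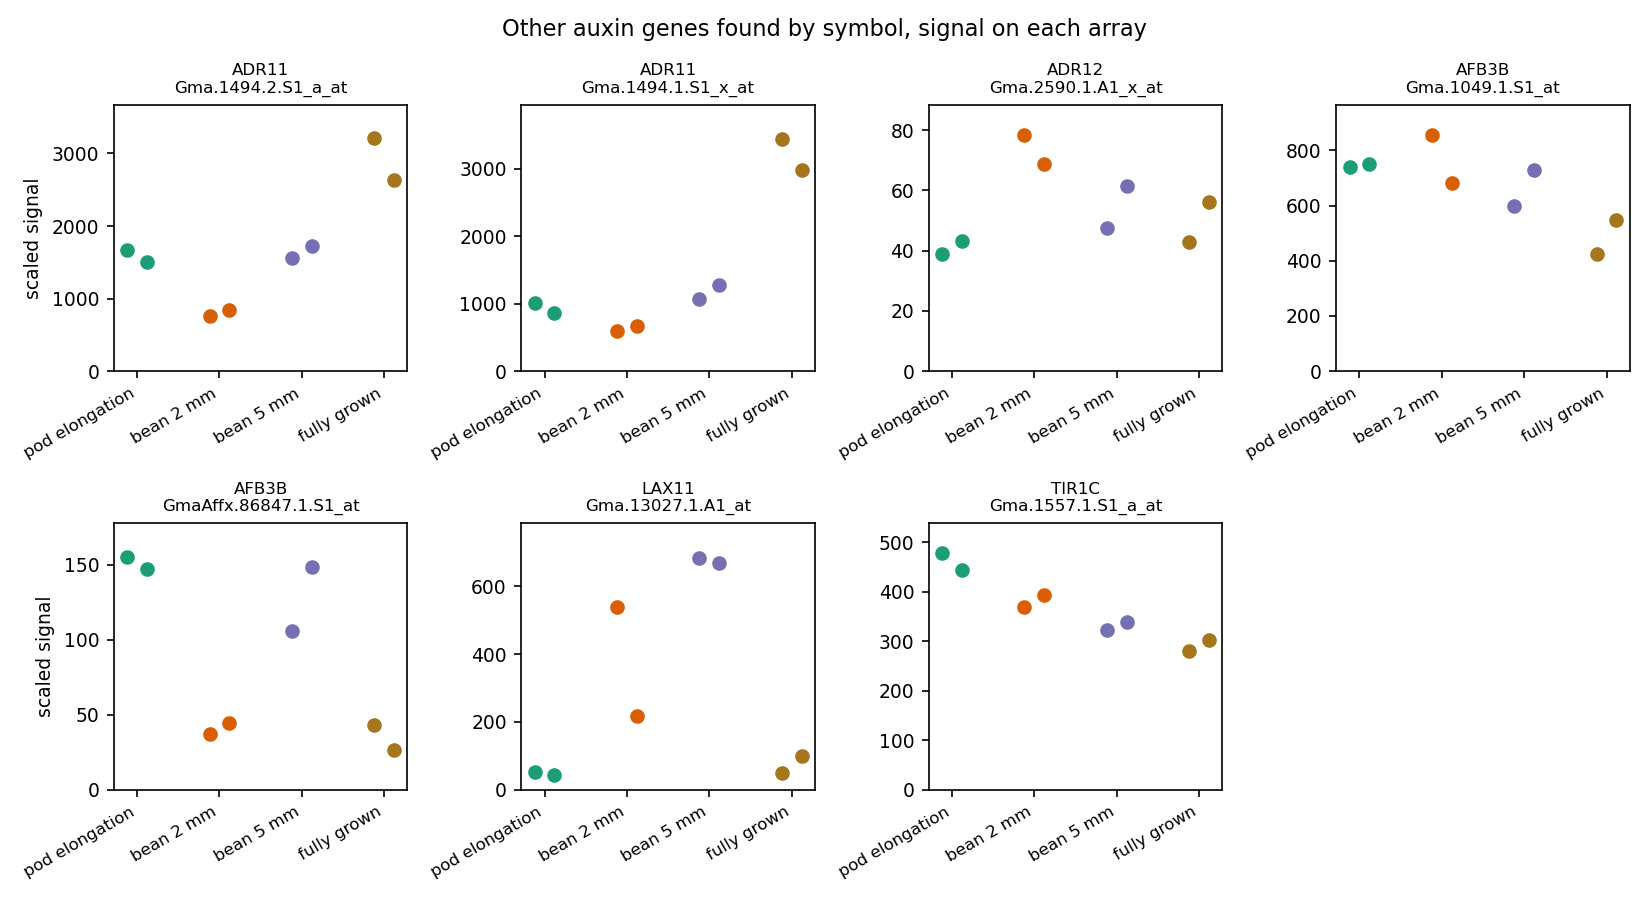
Scaled signal (y, linear from 0) of each probe set of the other auxin genes on the 2 arrays of each stage (x). LAX11 stood at 682 and 670 in 5 mm beans against 51.2 and 43.6 in elongating pods, and the 2 probe sets of AFB3B differ in pattern in 2 mm beans.

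Of the receptor genes, TIR1C was at 479 and 445 in elongating pods, 368 and 393 in 2 mm beans, 323 and 338 in 5 mm beans, and 280 and 303 in fully grown beans. No single step of it was called with equal array medians, with log2 changes of -0.27, -0.20 and -0.17, but other scalings called some. Quantile normalization called the first and last at -0.36 (adjusted p = 0.0139) and -0.37 (adjusted p = 0.0119). Without scaling the steps were 0.47, -1.12 and -1.33, all called, the first of them with the opposite sign (adjusted p = 0.0235). Control scaling called the last at -2.31 (adjusted p = 7.4e-11). Fully grown beans were called lower than the 3 younger stages, by 0.39 (adjusted p = 0.00444), and under each other scaling. Its probe set is of a kind that can match several transcripts.

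AFB3B had 2 probe sets, and they disagreed in the first 2 steps. The brighter one was at 739 and 752, then 855 and 683, then 599 and 728, and in fully grown beans at 423 and 547, called lower than the younger stages by 0.57 (adjusted p = 0.0054) and under each other scaling. Its fall in the last step, -0.44 with adjusted p = 0.0488, was lost at both other pseudocounts, without the filter, without the trend, with the replicate number as a block (adjusted p = 0.0579), from the 4 arrays of the step alone (adjusted p = 0.101), and without each single array other than fully grown replicate 2, with adjusted p up to 0.267. The dimmer one was at 155 and 147 in elongating pods, 37.2 and 44.7 in 2 mm beans, 106 and 148 in 5 mm beans, and 43.3 and 26.5 in fully grown beans. It fell by 1.56 in the first step (adjusted p = 0.000343) and rose by 1.32 in the second (adjusted p = 0.00411). There the brighter one gave 0.04 and -0.21, neither of them called. Both steps hold the 2 mm arrays, where the actin ratio was 3.64 and 3.60, and its part in the disagreement was not tested. In the last step the dimmer one was called lower, at -1.50 (adjusted p = 0.000326). Against the younger stages it was also called lower, at -1.14 (adjusted p = 0.00033), with overlapping arrays.

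ADR11 was at 1676 and 1510 in elongating pods, 758 and 848 in 2 mm beans, 1556 and 1728 in 5 mm beans, and 3212 and 2627 in fully grown beans on its brighter probe set. It fell 1.97-fold in the first step (adjusted p = 0.000556) and rose 2.02-fold in the second (adjusted p = 0.00252), the opposite signs to AUX22 in both, though without scaling neither was called (-0.22 and 0.07). In the last step it was called higher by 0.82 (adjusted p = 0.00116) with equal array medians. It was at -0.11 after quantile normalization, -0.43 without scaling and -1.49 with control scaling. With equal array medians its other probe set gave -0.55, 0.86 and 1.44 in the steps in order (adjusted p = 0.0121, 0.00541 and 4.99e-05). Other scalings of that probe set are not given here. ADR12 was called 1.56-fold higher in 2 mm beans than in elongating pods (adjusted p = 0.0123), a call lost without pod elongation replicate 1 or bean 2 mm replicate 1 (adjusted p = 0.0845 for both). Its scaled signal went from 39.0 and 43.3 to 78.3 and 68.6, and stood at 47.6 and 61.5 in 5 mm beans and 42.8 and 56.2 in fully grown beans. The probe sets of ADR11 and ADR12 are all of kinds that can match several transcripts. A brighter probe set numbered like that of ADR12, with the symbol LOC100101848, showed no such rise. It was at 4591 and 4627 in elongating pods and at 3566 and 4641 in 2 mm beans.

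Among 948 other genes with a symbol, those whose log2 signals ran most like AUX22 over the 8 arrays were HDL57, a homeodomain-leucine zipper gene (Pearson r = 0.98), CKX3, a cytokinin oxidase (0.97), and TRE1, a trehalase (0.97). CKX3 had mean scaled signals of 354, 682, 87.1 and 43.0 at the 4 stages in order of development, against 318, 484, 110 and 40.8 for AUX22. For AUX28 they were the bZIP factors BZIP130 (0.94) and BZIP113 (0.93), and SPX3 (0.92), which carries the SPX domain of phosphate signalling. BZIP130 had means of 53.3, 82.5, 51.2 and 96.3. For PIN2A they were ETR2, an ethylene receptor (0.97), SGR, a stay-green gene of chlorophyll breakdown (0.96), and CHI4A (0.95). SGR had means of 1.73, 51.2, 131 and 175. The 8 arrays share 4 stages and one scaling, so these correlations describe likeness of pattern only.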

How the data were processed

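Signals of 61170 probe sets on 8 arrays were deposited by the authors as linear intensity values, 1 per probe set and array, in 1 table. Per the submitters' processing notes MAS5 was used for 4 of them (bean 5 mm and fully grown). For the others the program is not given, nor is any scaling target. Soybean probe sets entered the tests if above the 95th percentile of the Phytophthora sojae and Heterodera glycines probe sets of its array on 2 or more arrays. Arrays were scaled to equal medians over these 33625, and log2(scaled signal + 16) was fitted to 4 stage means with limma 3.58.1 in R 4.3.3 (lmFit, eBayes with trend), with Benjamini-Hochberg adjustment over all of them, two-sided, at 0.05. The fit was tested on simulated data.

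The brightest probe set stood for a gene. Symbols came from the platform's annotation, updated through RefSeq (Glycine_max_v4.0), which held no descriptions, so auxin genes were found by symbol only. Of 8677 probe sets with 1 gene, 8652 matched. All members were named, every called auxin gene up to 6 per comparison, and the 3 genes most correlated with each member. The members and lists were chosen with earlier results of these data known. Same-numbered arrays deviated with correlations of -0.05 to 0.10 and were not taken as pairs. The number of arrays limits the precision. Other scalings, pseudocounts, filters and fits were run as alternatives. No sequences or coordinates are printed.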

Additional observations from a re-analysis of the deposited data

How the results depend on the processing

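Changes are on the log2 scale, and why a value moved between settings was not tested. All AUX22 changes kept their direction under every alternative, and its only lost calls were those of the first step, where leaving out single arrays gave 0.41 to 0.78. Without scaling, AUX28 was called from pods to bean 2 mm (0.84) and from bean 2 mm to bean 5 mm (-1.12). It gave 0.081 from bean 5 mm to fully grown, not called, and for fully grown beans it turned to -0.38 against the younger stages, -0.19 against pods and -1.04 against bean 2 mm. With control scaling these 4 were -0.33, -0.68, -0.69 and -1.02, and its second step was called at -0.69. Against the mean of pods and bean 2 mm it gave 0.38, not called. PIN2A in fully grown beans turned to -0.53 against bean 5 mm, -0.19 against the younger stages and -0.48 against bean 2 mm without scaling, and to -0.996, -0.44 and -0.50 with control scaling, under which the comparison with pods was 0.17 and no longer called. Control scaling also called its second step (0.50), quantile normalization gave -0.032 for the last step, a pseudocount of 64 lost its first step (0.16), and a pseudocount of 1 lost fully grown against bean 2 mm (1.08).

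Leaving out single arrays gave AUX28 -0.65 to -0.36 in the second step, 0.60 to 0.86 in the last and 0.44 to 0.65 for fully grown against pods, where the call was lost without pod elongation replicate 1. PIN2A ran from 0.37 to 0.64, 0.37 to 0.59 and -0.044 to 0.17 in the 3 steps, and from 0.43 to 0.65 for fully grown against bean 2 mm, a call lost without fully grown replicate 2 or bean 2 mm replicate 1. Of the other auxin genes, AFB3B turned to -0.059 in the first step with control scaling and ran from -0.12 to 0.19 without single arrays. TIR1C turned to 0.47 there without scaling. ADR11 turned to -0.43 without scaling, -0.11 with quantile normalization and -1.49 with control scaling in the last step, and against the younger stages to -0.45 without scaling and -1.27 with control scaling. ADR12 ran from -0.26 to 0.04 in the last step and from -0.27 to 0.023 against the younger stages without single arrays, turning sign without fully grown replicate 1 in both and also without bean 5 mm replicate 2 in the former.

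The number of probe sets called was 24420 in the first step and 24480 in the second without scaling, and 29594 for fully grown against bean 2 mm. With control scaling it was 28999 in the last step, 31757 against the younger stages and 29861 against bean 2 mm. In the second step it was 9698 from that step's 4 arrays alone and 1283 to 11440 without single arrays, and for bean 5 mm against pods 8260 to 17494 without single arrays. Of the 8 auxin genes, 7 were called higher and 0 lower in the first step without scaling, 0 higher and 5 lower in the second, 0 higher and 7 lower in the last, and 0 higher and 7 lower against the younger stages. With control scaling 2 were higher and 2 lower in the second step. In the last step 0 were higher and 7 lower, and against the younger stages 0 higher and 8 lower. Without scaling, the median change over all tested probe sets was 0.67, -0.76, -0.64 and -0.95 in these comparisons, in the same order. With control scaling it was -0.16, -1.36 and -1.47. The counts of auxin genes cannot be read apart from these shifts. Of all tested probe sets, 21646 were called in the last step without scaling. Shares by direction under these scales are not given here. In the first step 2 auxin genes were lower with quantile normalization, with the 4 arrays alone and with the mean over a gene's probe sets. The number was 0 without probe sets that can match several transcripts. Leaving out such probe sets gave 0 higher in the second step and 1 in the last, the gene mean 2 higher in the second, and quantile normalization 1 higher in the last step. Without single arrays the first step had 2 to 4 higher and 1 to 2 lower, the second 1 to 2 of each, and the last 1 to 2 higher and 2 to 3 lower. With the replicate number as a block, 15428, 5738, 17183 and 20432 probe sets were called in the 3 steps and against the younger stages. No call of AUX22, AUX28 or PIN2A changed under this block, while that of AFB3B in the last step was lost (adjusted p = 0.0579). The filter on dim signals and the fit without a trend changed no member's call.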

Other observations

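Some probe sets share the cluster number of an auxin gene's probe set but have no symbol in the annotation, and their values were not tested. Those of AFB3B and ADR11 are given here, while several more share the number of ADR12 and are not described. The one that goes with the brighter AFB3B probe set had scaled signals of 496 and 463 in elongating pods, 204 and 241 in 2 mm beans, 420 and 575 in 5 mm beans, and 183 and 123 in fully grown beans. It was thus low in 2 mm beans, like the dimmer AFB3B probe set and unlike the one it shares its number with. The one that goes with ADR11 had 1376 and 1284 in elongating pods, 561 and 601 in 2 mm beans, 941 and 1224 in 5 mm beans, and 1508 and 1306 in fully grown beans. It was low in 2 mm beans, as both ADR11 probe sets were. Its fully grown arrays overlapped with those of elongating pods, which those of neither ADR11 probe set did on the equal-median scale. Probe sets with a locus number as symbol also share the number of ADR12, and they differ from it. LOC100101848 stood at 2064 and 1570 in 5 mm beans and at 18640 and 18285 in fully grown beans. LOC100803913 went from 1307 and 1380 in elongating pods to 1990 and 2109 in 2 mm beans, and stood at 3641 and 3903 in fully grown beans.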
